A study of Mus musculus with 12 samples.

Results

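The 5 genes described here are those that make, import and phosphorylate creatine: Gatm and Gamt (synthesis), Slc6a8 (uptake), and the creatine kinases Ckmt1 and Ckb. They were taken by name from the 14107 genes of the count table, and all 5 were present. The set was chosen by its levels in Chd7iKO and Control libraries, in which Ckmt1 was already known to be among the largest rises. Differences between these groups are therefore given for the 5 genes as a description, with their errors and with no p-value.

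The Chd7iKO group held 5 libraries of O4-positive cells with the genotype PDGFRaCre; Chd7flox/flox, and the Control group held 7 libraries with Chd7flox/flox and no Cre. O4 is an antibody against sulfated lipids of late oligodendrocyte precursors and immature oligodendrocytes, and cells were collected with it on magnetic beads from mouse cortex and corpus callosum at postnatal day 7. Pups of both groups had received tamoxifen under the skin at postnatal days 1 and 4 (20 mg/ml, 40 and 30 µl). Cre was driven by Pdgfra regulatory sequence, and Pdgfra marks oligodendrocyte precursors. No library carried Cre with intact Chd7 alleles, so Cre and the loss of Chd7 cannot be told apart, and how many pups went into each library is not stated. P-values below reflect library-to-library spread, part of which may be technical.

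Creatine stores and carries high-energy phosphate between the places where ATP is made and used. Gatm encodes the enzyme that joins arginine and glycine into guanidinoacetate, and Gamt the enzyme that methylates guanidinoacetate to creatine with S-adenosylmethionine. Slc6a8 brings creatine in from outside the cell. Ckmt1 encodes the creatine kinase of the mitochondrial intermembrane space, and Ckb the cytosolic brain-type kinase. Human deficiencies of GATM, GAMT or SLC6A8 cause cerebral creatine deficiency.

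Library totals lay between 30384507 and 33317461 estimated counts in Chd7iKO and between 30930908 and 35512311 in Control libraries. Chd7 itself had 207 to 281 CPM in Chd7iKO and 179 to 270 CPM in Control libraries (CPM, the usual depth-scaled count, here with TMM scaling); reads were summed over the whole gene, and which exons were floxed is not stated, so this does not check the deletion. All 10 oligodendrocyte lineage markers of a list, among them Olig2, Sox10 and Pdgfra, were present. Of these, 0 passed as higher and 4 as lower in edgeR (Sox10, Pdgfra, Gpr17 and Bcas1), with a median log2 fold change of -0.24 over the list; their part in the differences of Gatm and Slc6a8 was not tested. The summed level of the 10 was 13422 to 15675 CPM in Chd7iKO and 16400 to 20375 CPM in Control libraries. Controls 1, 5 and 6 held Xist and almost no transcripts of 4 Y-linked genes, Control 2 held the reverse, and the other libraries held both. Summed markers of endothelium spanned 273 to 676 CPM in Chd7iKO and 157 to 402 CPM in Control libraries, and those of mural cells and fibroblasts 321 to 846 CPM in Chd7iKO and 129 to 377 CPM in Control libraries. For microglia the sums were 389 to 503 CPM in Chd7iKO and 187 to 434 CPM in Control libraries. Of 10 markers in each of these 3 lists, 7, 8 and 7 passed the threshold as higher and 0 as lower (edgeR, adjusted p under 0.05), and no marker was at 0. For astrocytes 0 of 10 passed in edgeR or DESeq2 (0 at an unadjusted p under 0.05 in edgeR) and 1 in limma voom, and for neurons 0 of 9 were higher and 2 lower in edgeR. In bulk RNA, fewer cells of a type and less RNA per cell cannot be told apart.

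The start regions of the kinases are shown because Ckmt1 and Ckb encode enzymes of the same reaction, yet Ckmt1 differed several-fold between the groups and Ckb little. Each window runs from 250 bases before to 50 bases after a RefSeq transcript start (build GRCm38.p6, gene strand, 5′ to 3′). Capitals mark matches, on either strand, to the TATA box (letters TATAAA), the CCAAT box (letters CCAAT), the GC box (letters GGGCGG) or the E-box (letters CANNTG).
Ckmt1 first start, chr2:121357526-121357825, plus strand: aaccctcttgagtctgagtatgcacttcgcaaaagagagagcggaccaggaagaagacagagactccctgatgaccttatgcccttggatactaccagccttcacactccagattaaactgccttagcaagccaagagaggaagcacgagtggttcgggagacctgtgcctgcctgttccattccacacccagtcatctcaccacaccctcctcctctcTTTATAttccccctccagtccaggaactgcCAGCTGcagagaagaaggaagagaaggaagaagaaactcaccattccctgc
Ckmt1 second start, chr2:121358360-121358659, plus strand: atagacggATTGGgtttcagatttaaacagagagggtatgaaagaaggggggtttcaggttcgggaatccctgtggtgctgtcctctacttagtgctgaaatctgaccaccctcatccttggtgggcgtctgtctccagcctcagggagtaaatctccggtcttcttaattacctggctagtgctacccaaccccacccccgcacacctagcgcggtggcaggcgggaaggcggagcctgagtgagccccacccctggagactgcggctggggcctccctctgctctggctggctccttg
Ckb, chr12:111672289-111672588, minus strand: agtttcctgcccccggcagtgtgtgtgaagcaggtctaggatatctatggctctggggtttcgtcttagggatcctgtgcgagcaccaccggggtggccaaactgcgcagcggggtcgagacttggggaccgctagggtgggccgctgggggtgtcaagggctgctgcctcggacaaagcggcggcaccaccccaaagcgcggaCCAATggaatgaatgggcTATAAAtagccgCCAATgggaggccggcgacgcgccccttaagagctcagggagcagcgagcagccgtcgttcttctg

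The first Ckmt1 window holds 1 match to TATAAA, on the opposite strand and beginning 31 bases before the start, and 1 match to CANNTG at the start itself. The second Ckmt1 window holds 1 CCAAT match far upstream. Ckb has 1 TATAAA match 28 bases before its start with a CCAAT match on each side of it. TATAAA occurs in 13.6% of all 32841 such windows, CCAAT in 37.4%, GGGCGG in 35.7% and CANNTG in 72.3%. The ratio of observed to expected CpG was 0.204 and 0.392 in the first and second Ckmt1 windows, against 0.754 in the Ckb window and a median of 0.384 over all windows. The windows of Gamt and Gatm, whose values were 0.469 and 0.799, are not printed; Gamt has 4 GGGCGG matches and no CCAAT match, and Gatm has 2 CCAAT matches. A match to these letters is a description and not a sign of binding.

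Ckmt1 stood several-fold higher in Chd7iKO cells. It lies on the plus strand of chromosome 2 from 121357714 to 121363737 (mm10, GENCODE vM21), with 2496 exonic bases, of which 10 are shared with Strc on the other strand; the strand setting of the counting is not stated. Chd7iKO libraries 1 to 5 had 88.5, 72.9, 66.7, 71.1 and 81.6 CPM of Ckmt1, against a lowest, median and highest value of 8.12, 9.99 and 25.1 CPM in Control libraries. Every Chd7iKO library was above every Control library. The means were 76.2 ± 8.77 CPM in Chd7iKO (SD, n = 5) and 13.9 ± 7.67 CPM in Control libraries (n = 7). This is 5.48-fold (95% interval 3.57 to 8.40), or 2.45 on the log2 scale with an SE of 0.29. By log2 fold change Ckmt1 was number 12 from the top of all 14107 genes. Between 2055 and 2873 estimated counts per Chd7iKO library and 262 to 894 per Control library stand behind these values.

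The Control libraries did not form a single group for Ckmt1. Controls 3 and 6 had 25.1 and 24.96 CPM, which is 2.71 and 2.69 times the median of the other 5, whose values were 8.12 to 10.8 CPM. Both still lay well below the lowest Chd7iKO library. Without Controls 3 and 6 the log2 fold change of Ckmt1 was 3.02 (SE 0.10), and leaving out each library in turn gave 2.36 to 2.67. With the mean level of astrocyte, neuronal, microglial, endothelial and mural markers as a covariate (the other-cell score) it was 2.37, and without Chd7iKO 4 and 5, the libraries with the most vascular markers, it was 2.45.

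Ckb, the main creatine kinase transcript of these cells, differed little. It lies on the minus strand of chromosome 12 from 111669361 to 111672338, with 2895 exonic bases. Chd7iKO libraries 1 to 5 had 1520, 1396, 1369, 1432 and 1449 CPM of Ckb, against 1212, 1333 and 1485 CPM as the lowest, median and highest Control values. The groups overlapped, and 1 of 5 Chd7iKO libraries was above every Control library. The means were 1433 ± 57.6 CPM in Chd7iKO and 1358 ± 105 CPM in Control libraries, with a log2 fold change of 0.078 (95% interval -0.053 to 0.21). The interval ends at a 1.16-fold rise, so that a change of Ckb as large as that of Ckmt1 lies outside it. The highest Control value of Ckb was that of Control 1, which also had the highest summed astrocyte markers of all libraries (6082 CPM); the part of these in the Ckb level was not tested.

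**Figure D1:**
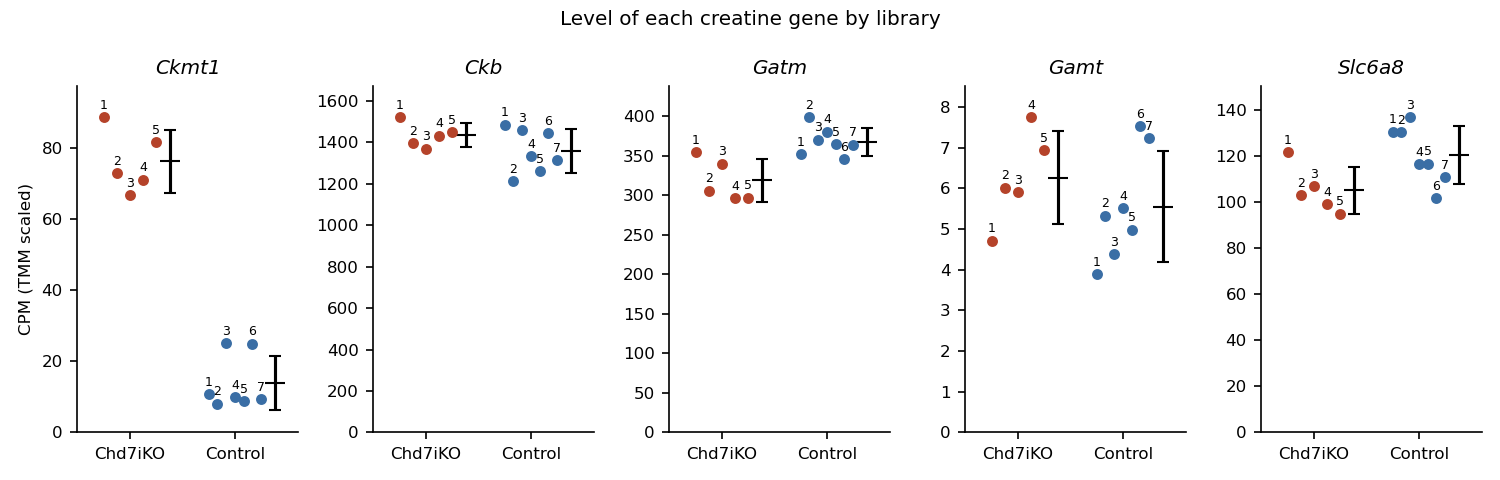
CPM of the 5 creatine genes in each library, with Chd7iKO (red) left of Control (blue); numbers give the replicate, and black bars show the mean ± SD. Ckmt1 lies between 66.7 and 88.5 CPM in Chd7iKO and between 8.12 and 25.1 CPM in Control libraries, while the groups overlap for the other 4 genes.

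Per length, Ckmt1 remained the minor kinase. In CPM per exonic kilobase, Ckmt1 averaged 30.5 ± 3.52 in Chd7iKO and 5.56 ± 3.07 in Control libraries, and Ckb 495 ± 19.9 and 469 ± 36.3. Ckmt1 therefore made up 5.79 ± 0.43% of the summed level of both kinases in Chd7iKO and 1.15 ± 0.56% in Control libraries. Single libraries had shares of 5.35% to 6.33% in Chd7iKO, and in Control libraries 1.96% and 1.97% in replicates 3 and 6 and 0.771% to 0.861% in the other 5. The summed level of the kinases was 525.5 ± 23.2 CPM per kilobase in Chd7iKO and 475 ± 38.5 in Control libraries, with overlapping ranges of 499 to 560 and 422 to 517. The muscle isoforms Ckm and Ckmt2 were not among the genes of the count table.

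**Figure D2:**
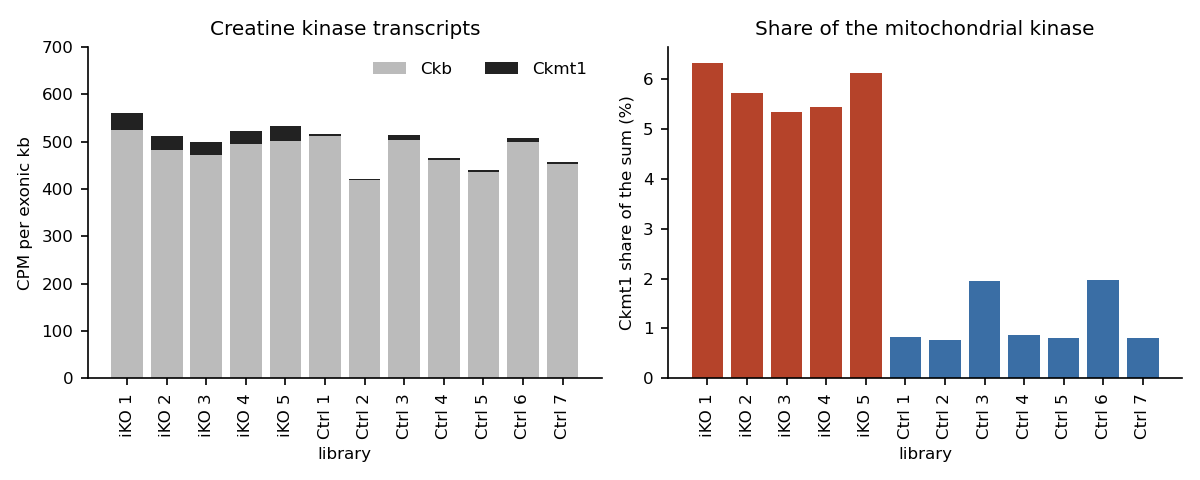
Left, stacked level of Ckb (grey) and Ckmt1 (black) in CPM per exonic kilobase in each library; right, the percentage of that sum that is Ckmt1, with Chd7iKO in red left of Control in blue. The share is 5.35% to 6.33% in Chd7iKO and 0.771% to 1.97% in Control libraries, and the ranges of the summed level overlap.

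Gatm, the first enzyme of synthesis, stood slightly lower in Chd7iKO cells. It lies on the minus strand of chromosome 2 from 122594467 to 122611303, with 3001 exonic bases. Chd7iKO libraries 1 to 5 had 354, 306, 340, 297 and 297 CPM of Gatm, against 346, 365 and 399 CPM as the lowest, median and highest Control values. In 4 of 5 Chd7iKO libraries the level was below every Control library, and Chd7iKO 1 overlapped Controls 1 and 6. The means were 319 ± 26.7 CPM in Chd7iKO and 368 ± 17.6 CPM in Control libraries. This is 1.15-fold lower, or -0.21 on the log2 scale (SE 0.056, with -0.33 to -0.086 as the 95% interval). Its lowest values were those of Chd7iKO 4 and 5, which had the highest summed endothelial markers (603 and 676 CPM) and mural and fibroblast markers (715 and 846 CPM). Without these libraries the log2 fold change of Gatm was -0.14, without Chd7iKO 4 alone it was -0.18, and with the other-cell score as a covariate it was -0.088. None of these 3 values passed the threshold, while -0.18 with scaling by library totals did, so passing does not follow the size of the value alone.

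Gamt, the methyltransferase that completes synthesis, was the least abundant of the 5 genes and showed no clear difference. It lies on the minus strand of chromosome 10 from 80258151 to 80261012, with 1444 exonic bases. Chd7iKO libraries 1 to 5 had 4.71, 6.02, 5.91, 7.74 and 6.94 CPM of Gamt, against 3.89, 5.33 and 7.54 CPM as the lowest, median and highest Control values. The groups overlapped over nearly their whole range. On the log2 scale the difference was 0.17 (SE 0.17, with -0.20 to 0.55 as the 95% interval), so that the interval runs from 0.870 to 1.46 times the Control level. Between 153 and 254 estimated counts per Chd7iKO library and 117 to 270 per Control library stand behind these values. Its sign depended on the libraries, with -0.0026 without Chd7iKO 4 and 5 and -0.091 with the other-cell score.

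Per length, Gatm exceeded Gamt in every library. In CPM per exonic kilobase, Gatm averaged 106 ± 8.91 in Chd7iKO and 123 ± 5.87 in Control libraries, and Gamt 4.34 ± 0.79 and 3.85 ± 0.95. The ratio of Gatm to Gamt was 25.5 ± 6.97 in Chd7iKO and 33.6 ± 7.93 in Control libraries, and single values overlapped, from 18.4 to 36.2 and from 22.1 to 43.6.

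Slc6a8, the creatine transporter, is X-linked and lies on the plus strand from 73673150 to 73682502 of chromosome X, with 5210 exonic bases. Chd7iKO libraries 1 to 5 had 122, 103, 107, 99.1 and 94.998 CPM of Slc6a8, against 102, 117 and 137 CPM as the lowest, median and highest Control values. In 2 of 5 Chd7iKO libraries the level was below every Control library, and the others overlapped. The means were 105 ± 10.3 CPM in Chd7iKO and 120 ± 12.5 CPM in Control libraries. On the log2 scale this is -0.20 (SE 0.079, with -0.37 to -0.026 as the 95% interval), which did not pass the threshold of the fit over all genes. Controls with Xist and almost no Y-linked transcripts had 131, 117 and 102 CPM, and Control 2, with almost no Xist, had 130 CPM, so that the lowest and a high Control value both came from libraries with Xist alone. With Xist as a covariate the log2 fold change was -0.18, and with Y-linked genes it was -0.23. With the other-cell score it was -0.066, and without Chd7iKO 4 and 5 it was -0.12.

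Set in order of level per exonic kilobase, Chd7iKO libraries ran Ckb, Gatm, Ckmt1, Slc6a8 (20.2 ± 1.98) and Gamt, and no neighbours in that order overlapped. Control libraries ran Ckb, Gatm, Slc6a8 (23.1 ± 2.40), Ckmt1 and Gamt, with the last pair overlapping. Ckmt1 thus stood above Slc6a8 in every Chd7iKO library and below it in every Control library.

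By the call rule of the fit over all genes (edgeR, adjusted p under 0.05), 1 of the 5 creatine genes was higher (Ckmt1), 1 was lower (Gatm) and 3 did not pass. Among all genes tested 15.8% were called higher and 13.8% lower. Ckmt1 was the 1 gene with every Chd7iKO library above every Control library, a pattern of 6.2% of all genes, and 0 of 5 showed the reverse, as did 6.32% of all genes. Since the members were chosen on this contrast, nothing is read from these counts. In the authors' deposited table the log2 fold changes were 2.46 for Ckmt1, 0.078 for Ckb, -0.21 for Gatm, 0.17 for Gamt and -0.20 for Slc6a8.

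Binding of Chd7 and Chd8 near these genes was read from the authors' deposited lists of gene names, which do not rest on the RNA contrast. Gatm and Gamt, the synthesis genes, were listed as bound by Chd7 in oligodendrocyte precursors, Gatm also in oligodendrocytes and Gamt in precursors alone. Both were in the list bound by Chd7 and Chd8. Ckmt1, Ckb and Slc6a8 were listed as bound by Chd8 without Chd7, so that all 5 genes were Chd8-bound and 2 of 5 Chd7-bound in precursors. Of all genes in the count table, 66.8% are on a list of Chd8-bound genes and 39.4% on the list of those bound by Chd7 in precursors. Ckmt1 was on no Chd7 list of precursors or oligodendrocytes. How a binding site was tied to a gene is not stated, so the lists cannot be set against the sequences printed above.

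Genes next to Ckmt1 were read out to see whether its surroundings moved with it, a choice made after the data were seen. Of 16 measured genes within 250 kb, 2 were higher, 0 lower and 14 not past the threshold, with a median log2 fold change of 0.034 beside 0.0014 for all genes tested. These counts stand beside 15.8% of all genes called higher and 13.8% lower. Ppip5k1, an inositol phosphate kinase gene 2.3 kb upstream, averaged 25.3 ± 1.32 CPM in Chd7iKO and 20.8 ± 1.45 CPM in Control libraries (log2 fold change 0.28, edgeR adjusted p = 0.00503). Wdr76, 143 kb downstream, averaged 20.5 ± 0.968 CPM in Chd7iKO and 13.6 ± 1.40 CPM in Control libraries (log2 fold change 0.59, edgeR adjusted p = 0.000171). The lowest value was that of Map1a, a microtubule-associated protein gene, at -0.24 (edgeR adjusted p = 0.0686). The largest of these differences was far below that of Ckmt1. Ckmt1 was known beforehand as one of the largest rises, and 99.9% of all genes had a lower log2 fold change. That its neighbours lay below it therefore says nothing about its surroundings.

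**Figure D3:**
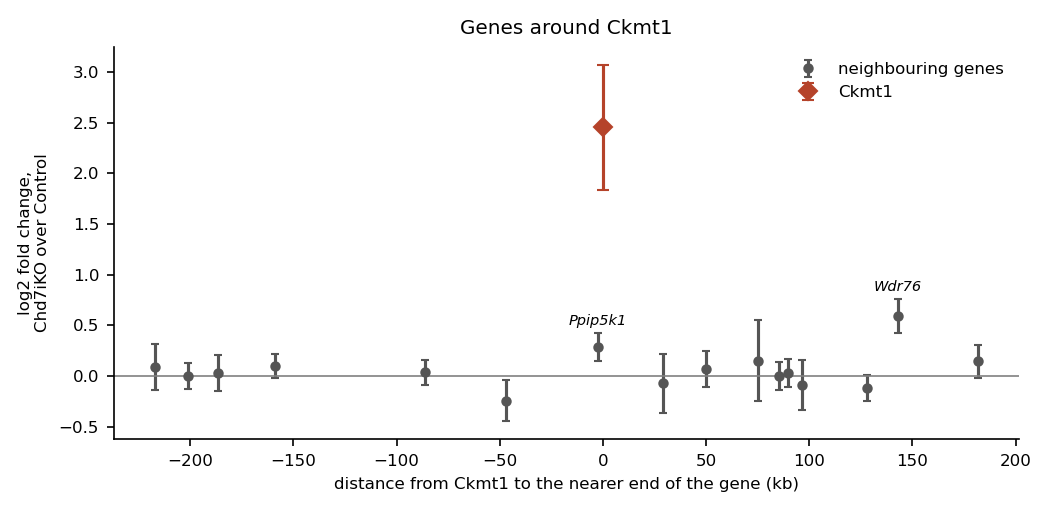
Log2 fold change of Chd7iKO over Control with its 95% interval for Ckmt1 (red diamond) and 16 measured genes within 250 kb (grey), plotted by distance from Ckmt1. The neighbours lie between -0.24 and 0.59, and Ckmt1 at 2.45.

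Genes with a level pattern like that of Ckmt1 were ranked by Pearson's r of log2 CPM over the 12 libraries, among genes that averaged 10 CPM or more. The closest were Hectd2 (r = 0.993), Galnt6 (0.991) and Eda2r (0.988), which encode a ubiquitin ligase, a glycosyltransferase of mucin-type O-glycans and a receptor of the TNF receptor family. The libraries share a group, so the likeness within groups was computed as well, and deviations from the group means gave r = 0.945, 0.930 and 0.952. In all 3 genes Controls 3 and 6 lay above the other 5 Control libraries and below the Chd7iKO libraries. Eda2r had 65.9 to 79.1 CPM in Chd7iKO libraries, against 32.6 and 28.1 CPM in Controls 3 and 6 and 8.11 to 10.5 CPM in the other 5. The 3 genes were picked from 10257 candidates for their likeness to Ckmt1 in these same libraries, Controls 3 and 6 included. The shared position of these Controls and the r within groups follow in part from that choice. These correlations describe 12 libraries and carry no test.

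**Figure D4:**
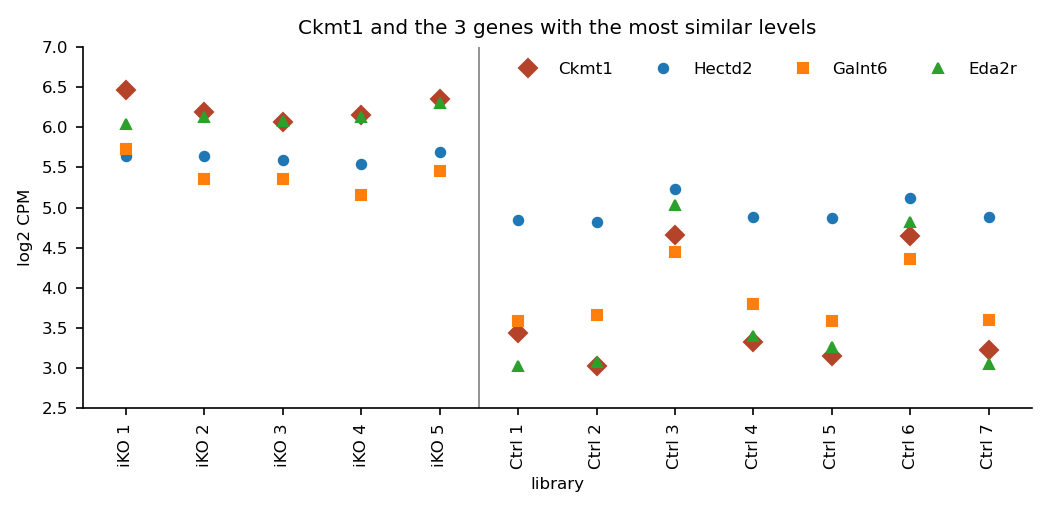
Log2 CPM of Ckmt1 (red diamonds), Hectd2, Galnt6 and Eda2r in each library, Chd7iKO (iKO) left of Control (Ctrl). In all 4 genes Controls 3 and 6 stand between the other 5 Control libraries and the Chd7iKO libraries. Hectd2, Galnt6 and Eda2r were picked for their likeness to Ckmt1 over these libraries.

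The other creatine genes were ranked in the same way. Gatm was closest to Rnf19b, a ubiquitin ligase gene (r = 0.959), the ciliary gene Iqcb1 (0.958) and Sowahc (0.958). Slc6a8 was closest to Arl8a, a small GTPase of lysosome transport (0.978), Sharpin, a subunit of a ubiquitin ligase complex (0.964), and Plekhb1 (0.963). Ckb was closest to the progestin receptor gene Paqr7 (0.908), the phosphatase subunit gene Ppp2r5a (0.906) and the immediate early gene Jun (0.882). Gamt was closest to the chaperone gene Hspa4 (0.963), Rdx, which links actin to the membrane (0.961), and the ribosomal protein gene Rpl12 (0.951). For these pairs, deviations from the group means gave r between 0.858 (Ckb and Jun) and 0.978 (Slc6a8 and Arl8a). No gene was named for more than 1 of the 5. Only 3 of 10257 candidates were named for each, so the lack of shared names says little about likeness among the 5.

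Around the pathway, 9 lists of genes that handle its substrates or take part in related energy metabolism were counted. Of 78 measured genes of 88 listed, 15 were higher (19.2%), 4 lower (5.13%) and 59 did not pass, with a median log2 fold change of 0.055 beside 0.0014 for all genes tested. Among all genes 15.8% were called higher and 13.8% lower, so the higher share was near that of any gene and the lower share was below it. With the other-cell score as a covariate 2 were higher and 1 lower, and without Chd7iKO 4 and 5 the counts were 3 and 1. Calls over all genes fell as well, from 4167 to 1247 with the score and to 1747 without these libraries. Endothelial, mural and microglial markers were higher in Chd7iKO libraries (median log2 fold changes of 0.79, 0.99 and 0.63). Their part in the counts of list genes was not tested.

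Among further genes of creatine and guanidinoacetate transport, 1 of 3 measured genes passed. Slc6a13, a transporter of GABA and taurine that also carries guanidinoacetate, averaged 20.1 ± 9.41 CPM in Chd7iKO and 10.7 ± 3.32 CPM in Control libraries (log2 fold change 0.91, SE 0.30; adjusted p = 0.0369 in edgeR). With the other-cell score its log2 fold change was 0.079, and 12 of 25 alternatives ended the call, among them leaving out Chd7iKO 4 (0.72) or 5 (0.78). The taurine transporter Slc6a6 averaged 316 ± 55.7 CPM in Chd7iKO and 260 ± 26.0 CPM in Control libraries (log2 fold change 0.28, edgeR adjusted p = 0.05001), on the edge of the threshold. The creatine transporter Slc16a12 averaged 6.43 ± 1.81 CPM in Chd7iKO and 5.77 ± 1.12 CPM in Control libraries and did not pass (edgeR adjusted p = 0.570).

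Of 6 measured genes of arginine transport, synthesis and breakdown, 1 was higher and 2 were lower. The arginine transporter genes moved apart. Slc7a3 fell to 15.8 ± 1.55 CPM in Chd7iKO libraries, against 30.4 ± 4.85 CPM in Control libraries (-0.95 ± 0.11 on the log2 scale, SE; edgeR adjusted p = 8.13e-05), and every Chd7iKO library was below every Control library. Slc7a1 rose to 211 ± 32.6 CPM in Chd7iKO libraries, against 139 ± 19.8 CPM in Control libraries (0.61 ± 0.11 on the log2 scale, SE; edgeR adjusted p = 0.00162). The mitochondrial arginase gene Arg2 averaged 1.49 ± 0.25 CPM in Chd7iKO and 2.12 ± 0.35 CPM in Control libraries (log2 fold change -0.51, edgeR adjusted p = 0.0261), a call that 6 of 25 alternatives ended. Another of the 25, the filter at a mean of at least 5 CPM, left this gene out.

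Of 8 genes of glycine and serine synthesis, transport and breakdown, 3 were higher and 1 was lower. The cytosolic serine hydroxymethyltransferase gene Shmt1 rose to 28.0 ± 3.87 CPM in Chd7iKO libraries, against 17.4 ± 2.83 CPM in Control libraries (0.69 ± 0.12 on the log2 scale, SE; edgeR adjusted p = 0.00103). Its mitochondrial counterpart Shmt2 (0.16) and Phgdh, the first enzyme of serine synthesis (0.29), rose by less. The next enzyme of that route, Psat1, fell (-0.16). For Shmt2, Phgdh and Psat1 the edgeR adjusted p was 0.0182, 0.0203 and 0.0105. Their calls were lost in 3, 2 and 2 of 25 alternatives. In each case these included the other-cell score and the fit without Chd7iKO 4 and 5. The list for the methyl cycle, which provides the methyl group used by Gamt, had 2 of 9 genes higher and 1 lower. Ahcy (0.26), which removes S-adenosylhomocysteine, and its relative Ahcyl2 (0.19) were higher and Mat2b (-0.15) was lower, at edgeR adjusted p = 0.0386, 0.0487 and 0.0449. Whether Ahcyl2 acts in the cycle was not tested. All 3 calls were lost in 11 or more of 25 alternatives.

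In other systems that move high-energy phosphate, several adenylate kinase genes passed the threshold in edgeR, and single genes or none in the other lists. Adenylate kinases interconvert ATP, ADP and AMP. Of 6 measured genes of this family, 3 were higher (50%, beside 15.8% of all genes) and 0 lower in edgeR. DESeq2 and limma voom each called 4 higher and 1 lower. Ak1, the cytosolic form, averaged 26.5 ± 1.93 CPM in Chd7iKO and 19.1 ± 2.80 CPM in Control libraries (0.47 ± 0.098 on the log2 scale, SE; edgeR adjusted p = 0.00339), and every Chd7iKO library was above every Control library. Ak6 (0.40) also passed at edgeR adjusted p = 0.0382, and 13 of 25 alternatives ended this call. Of 7 nucleoside diphosphate kinase genes Nme1 was higher (0.20), and of 9 genes of mitochondrial exchange Slc25a5, an ATP and ADP carrier, was higher (0.23), at edgeR adjusted p = 0.0137 and 0.0120. The calls of Ak1, Nme1 and Slc25a5 were lost with the other-cell score, and those of Nme1 and Slc25a5 also without Chd7iKO 4 and 5. The outer membrane channels Vdac1, Vdac2 and Vdac3, through which the mitochondrial kinase exchanges substrates, did not pass (log2 fold changes -0.046, 0.021 and 0.015). Of 9 subunits and activators of the energy sensor AMPK, 0 passed in edgeR, where 1 (Cab39, log2 fold change -0.11) had an unadjusted p below 0.05. DESeq2 called 1 lower (Cab39), and limma voom called 2 higher and 1 lower.

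Of 21 genes of glycolysis and lactate transport, 3 were higher (14.3%, beside 15.8% of all genes) and 0 lower, with a median log2 fold change of 0.068. Slc16a1, a lactate transporter, averaged 208 ± 58.8 CPM in Chd7iKO and 135 ± 24.9 CPM in Control libraries (0.62 ± 0.17 on the log2 scale, SE; edgeR adjusted p = 0.0174). Its log2 fold change was 0.20 with the other-cell score, and the call was lost without Chd7iKO 4 (0.54) or 5 (0.54). The enolase gene Eno2 (0.27) and the lactate dehydrogenase gene Ldha (0.23) also passed, with edgeR adjusted p = 0.0236 and 0.0476, and 6 and 13 alternatives ended these calls.

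**Figure D5:**
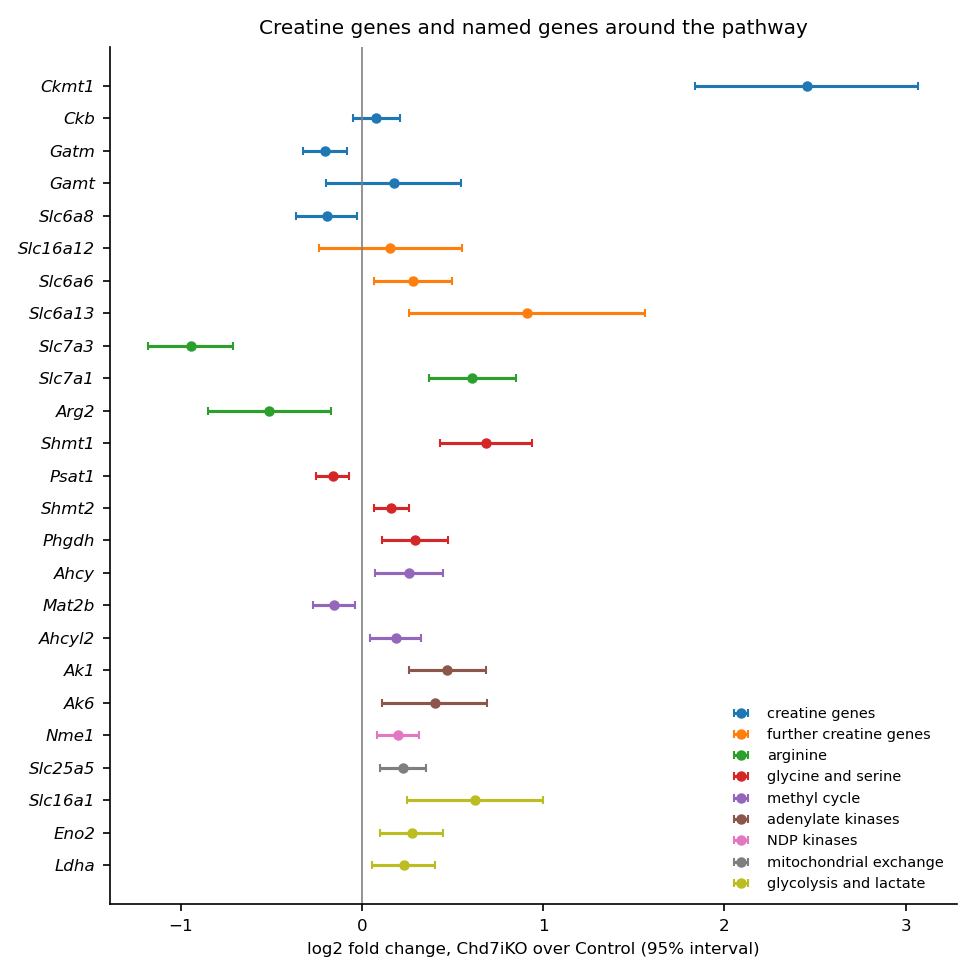
Log2 fold change of Chd7iKO over Control with its 95% interval for the 5 creatine genes (top) and the named genes of the lists around the pathway, coloured by list. Ckmt1 at 2.45 stands apart from the named genes, which lie between -0.95 and 0.91.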

How the data were processed

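The RNA of 12 libraries was analysed from the estimated counts per gene that the authors deposited, of which 1.76% were not whole and which were rounded. Per the submitters' processing notes the build was mm10 and the tools included featureCounts, TopHat2, Bowtie and edgeR, without roles; versions and the gene annotation are not stated. The log2 fold changes and p-values that the authors deposited come from their own comparison, and of these only the log2 fold changes of the 5 genes are printed. The authors also deposited lists of names of Chd7- and Chd8-bound genes.

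Chd7iKO was compared with Control by edgeR 4.0.16 in R 4.3.3 (two-sided quasi-likelihood F-test, TMM scaling, Benjamini-Hochberg adjustment over 14107 genes, threshold 0.05); the filter on low counts removed 0 genes. The test was tried on simulated counts. Levels are CPM with TMM scaling, and levels per kilobase use merged exons of GENCODE vM21, to which 13628 symbols matched. Log2 levels used a prior count of 2. No pair of libraries of the same group agreed within sampling noise (lowest chi-square per degree of freedom 9.14 in 31 pairs). Alternatives were other scalings, DESeq2 1.42.0, limma 3.58.1, other filters and thresholds, covariates, a replicate block and fits without libraries. The limma fit used voom with quality weights, by which more variable libraries count for less.

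The 5 genes, the lists and the alternatives were chosen with earlier results of these data known. Named from each list were all genes past the threshold, or the 4 of smallest p where more passed, all measured genes of the first list, and 3 genes of like pattern per creatine gene. Promoter windows are from RefSeq (GRCm38.p6); 4 of the 5 genes matched. Some genes that these rules would name are not reported here.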

Additional observations from a re-analysis of the deposited data

Results flagged for a closer look

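Values of 64 groups of libraries were searched for a library far from the others, and 3 were found; chance gives about 1 in 20 groups. The taurine transporter gene Slc6a6 had 317 CPM in Control 1, against 240 to 260 CPM in the other Control libraries. The arginine transporter gene Slc7a3 had 40.3 CPM in Control 4, against 25.3 to 31.5 CPM in the others. The 10 astrocyte markers summed to 6082 CPM in Control 1, against 2719 to 3819 CPM in the others. None of the 5 creatine genes had such a library. Controls 3 and 6, which stood apart for Ckmt1, lay too close to each other for either to be singled out.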

How the results depend on the processing

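Ckmt1 was higher in all 25 alternatives (log2 fold change 2.36 to 3.02); its value was 3.02 without Controls 3 and 6. Gatm was -0.088 with the score of other cell types. Leaving out each library in turn gave 2.36 to 2.67 for Ckmt1, 0.052 to 0.11 for Ckb, 0.090 to 0.27 for Gamt, -0.25 to -0.18 for Gatm and -0.26 to -0.16 for Slc6a8. Slc6a8 passed as lower without Control 6 (-0.23), without Chd7iKO 1 (-0.26) and in limma voom (-0.21). The 4167 genes called became 1247 with the score of other cell types, 1747 without Chd7iKO 4 and 5, 6462 in limma voom and 2056 at an adjusted p of 0.01, and 2690 to 4612 without each library in turn, lowest without Chd7iKO 5. Of the 5 creatine genes, 0 were lower with that score, without Chd7iKO 4 and 5 and at 0.01, 2 in limma voom, and 0 to 2 without each library in turn. Of the list genes, 2 were higher and 1 lower with the score, 3 and 1 without Chd7iKO 4 and 5, 28 and 9 in limma voom, and 3 and 1 at 0.01; without each library in turn 8 to 19 were higher, fewest without Chd7iKO 4 or 5, and 2 to 5 lower, fewest without Control 4 or Chd7iKO 2. In addition 2 were lower with a mean of at least 5 CPM, 2 without Controls 3 and 6, and 7 in DESeq2. Slc16a12 turned to -0.29 with the score and to -0.13 without Chd7iKO 4 and 5. The cause of these changes was not tested.

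The replicate numbers did not pair the libraries: deviations from the group means correlated at 0.38, -0.12, 0.084, -0.13 and -0.18 for numbers 1 to 5, and 1 of 5 Chd7iKO libraries was closest to the Control of its own number. With the replicate block, 2 creatine genes were higher (Ckmt1, Gamt) and 2 lower (Gatm, Slc6a8), and 4780 genes were called. Controls 6 and 7 share no number with a Chd7iKO library, so they add nothing to the group difference in this fit. Their Gamt levels (7.54 and 7.23 CPM) were the highest of the Control libraries, and their Slc6a8 levels (102 and 111 CPM) the lowest. The calls of Gamt and Slc6a8 here therefore cannot be credited to the pairing.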

Other observations

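The intermediate position of Controls 3 and 6 was not particular to Ckmt1. Of 14107 genes, 802 (5.69%) were higher in both than in the other 5 Control libraries, and 1078 (7.64%) were lower in both. Of the 802, 156 (1.11% of all genes) were also lower there than in every Chd7iKO library. These 156 are part of the 874 genes with every Chd7iKO library above every Control library. Shares for other pairs of Control libraries were not computed, so the counts do not set this pair apart from others. Of the creatine genes, Ckmt1 alone was above the other 5 in both libraries. Control 6 held Xist with almost no Y-linked transcripts and Control 3 held both.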
